A study of Mus musculus with 108 samples.

Results

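The RNAs described here are 74 of the 55573 mouse genes counted in single oocytes. They were chosen by their own raw counts, as genes with at most 3 in each of 8 control oocytes cultured for 3 hours, and a median of at least 20 raw counts over 11 Exosc10-deficient oocytes handled the same way. The control condition alone was met by 37358 genes and the knockout condition alone by 12264, and 74 genes met both. Because these polyA libraries picked the members, their values there are given as a description with no test. The remaining libraries, which the choice did not use, carry the comparisons.

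EXOSC10 is the nuclear 3′ to 5′ exoribonuclease that joins the core of the RNA exosome. The nuclear exosome trims the 3′ ends of small nucleolar RNA (snoRNA) and ribosomal RNA precursors, and it degrades promoter upstream transcripts, other unstable noncoding RNAs and transcripts that fail nuclear processing. A growing oocyte stores RNA and stops transcribing near full size, so the RNA of a full-grown oocyte is changed afterwards mainly by decay and by changes of poly(A) tail length.

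The samples were single oocytes of mice labelled Exosc10 oocyte-specific knockout (cKO) and of control mice. The Cre driver, strain and age of the mice are not given in the sources used here. GV oocytes (with a germinal vesicle, before meiosis resumes) and oocytes kept for 3 further hours (GV3h) were held outside the body in M2 medium, and MII eggs (arrested at the second meiotic metaphase) were taken from oviducts. PolyA libraries were made from RNA caught on oligo-dT beads: 15 knockout oocytes were compared with 7 controls for the GV stage, 11 with 8 for GV3h, and 15 with 8 for MII. RiboMinus libraries were primed with random hexamers, with 7 knockout oocytes against 8 controls for GV and 4 eggs against 3 for MII.

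Each title carries a V number shared by several oocytes of 1 genotype (such as V857). The labels do not say what it stands for. It is taken here as the donor female and called that throughout, and it was the replicate: 2 cKO and 2 control females at polyA GV, 3 and 3 at polyA GV3h and MII, 2 and 2 at RiboMinus GV, and 2 and 1 at RiboMinus MII. Total gene counts ran from 4638718 to 8735914 per polyA oocyte and from 12319658 to 62675760 per RiboMinus oocyte. Exosc10 itself had a group median of 0.124 to 4.03 CPM (the usual per-library scale, raw counts over the oocyte's total gene counts) in the 5 cKO groups and of 48.9 to 130.1 CPM in the 5 control groups. The highest cKO oocyte reached 8.49 CPM and the lowest control oocyte 38.5 CPM, so every library matched its labelled genotype. The 12 oocyte markers (such as Zp3 and Gdf9) were present in all groups, and none of the 74 members was among the markers of oocytes, follicle cells, stroma, blood or endothelium that were looked up.

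The only snoRNA genes with a cKO median of at least 20 counts at GV3h, among 1507 annotated, were the 4 snoRNA entries of the member list. These are U8 (Snord118), U13 (Snord13) and a pair of entries for U3 (Rnu3a) that lie on the same bases. The U3 entries had the same count in 84 of 86 oocytes and differed by at most 1 count, so they are 1 locus and the list holds 73 loci. U3 and U8 are box C/D snoRNAs needed for cleavage of the ribosomal RNA precursor, and U13 carries the same boxes. Mature snoRNAs end without a poly(A) tail, which oligo-dT beads need. U3 and U8 are printed from GENCODE M21 on GRCm38, 5′ to 3′ on their own strand and as DNA letters, because their counts differed between the library types. Capitals mark every match to TGATGA (the box C core) and to CTGA (the box D core), searched on the RNA strand only.
U3, Rnu3a, chr10:40258467-40258680, plus strand: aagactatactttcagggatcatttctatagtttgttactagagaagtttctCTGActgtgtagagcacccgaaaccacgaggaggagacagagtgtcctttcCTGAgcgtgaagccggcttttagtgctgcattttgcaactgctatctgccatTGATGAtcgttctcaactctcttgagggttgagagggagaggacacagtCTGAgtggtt
U8, Snord118, chr11:69073427-69073561, plus strand: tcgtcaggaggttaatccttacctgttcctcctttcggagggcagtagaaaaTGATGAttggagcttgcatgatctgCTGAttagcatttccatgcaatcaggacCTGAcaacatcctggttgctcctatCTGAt
Each transcript holds 1 TGATGA, and the last CTGA lies within a few bases of the 3′ end in both. A match to so short a word is a description and not a mapped site. No exon of another gene overlaps either of them. U3 has near-identical copies elsewhere in the genome, so its counts are uncertain.

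In polyA libraries the snoRNAs were close to 0 in every control and present in cKO oocytes before maturation. U8 had 0 counts in all 8 GV3h controls and 13 to 90 counts (median 64) in the 11 GV3h cKO oocytes, at least 111-fold higher when the controls are set at 3 counts over the group. U13 also had 0 counts in all 8 controls, and 5 to 61 (median 29) in cKO oocytes. U3 had 1 count in 1 of the 8 controls and 3 to 44 (median 22) in cKO oocytes. The 3 cKO females were alike for U8 (Snord118), with means of 7.79, 7.71 and 8.07 CPM.

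The same RNAs were followed into the polyA libraries that did not pick them. At GV, U8 had 0 counts in 6 of 7 controls and 1 in the other, against 15 to 50 (median 30) in 15 cKO oocytes, and the groups did not overlap. The pooled ratio was 196 (exact counting interval 35.0 to 7767), and U8 was called higher (edgeR quasi-likelihood test on female sums, Benjamini-Hochberg adjusted p = 0.0188). U13 had 1 to 45 counts (median 8) and U3 had 0 to 33 (median 5) in cKO oocytes, with controls at 0 or 1, and neither passed the test (adjusted p = 0.118 and 0.16, edgeR). U13 (Snord13) was higher in female V857, at 4.09 CPM, than in V888, at 0.901 CPM. At MII, U8 was 0 in all 8 control eggs and 0 to 29 (median 3) in 15 cKO eggs, at least 16.2-fold higher and called (edgeR, adjusted p = 0.00778). U13 did not exceed 1 count in any MII egg and U3 did not exceed 3.

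RiboMinus libraries, which do not select for poly(A), gave a different picture for the snoRNAs. U8 had 32 to 61 counts (median 42) in GV cKO oocytes and 14 to 61 (median 34) in controls, and the ranges overlapped. The log2 difference was 0.13 (95% interval -1.30 to 1.55), 0.37 for U13 (-0.89 to 1.62) and 1.16 for U3 (-0.19 to 2.50), none of them called (edgeR, adjusted p = 0.966, 0.816 and 0.409). At MII, U8 counts were 9, 17, 28 and 61 in cKO eggs and 20, 50 and 62 in controls, a log2 difference of -1.80 (-3.49 to -0.12). U13 differed by -1.52 (-2.995 to -0.04) and U3 by -0.35 (-1.96 to 1.26), again not called (edgeR, adjusted p = 0.159, 0.172 and 0.772). The snoRNAs were thus not silent in control oocytes when poly(A) was not required for capture. The difference between the library types was not tested, because the 2 kinds of library were fitted apart.

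**Figure D1:**
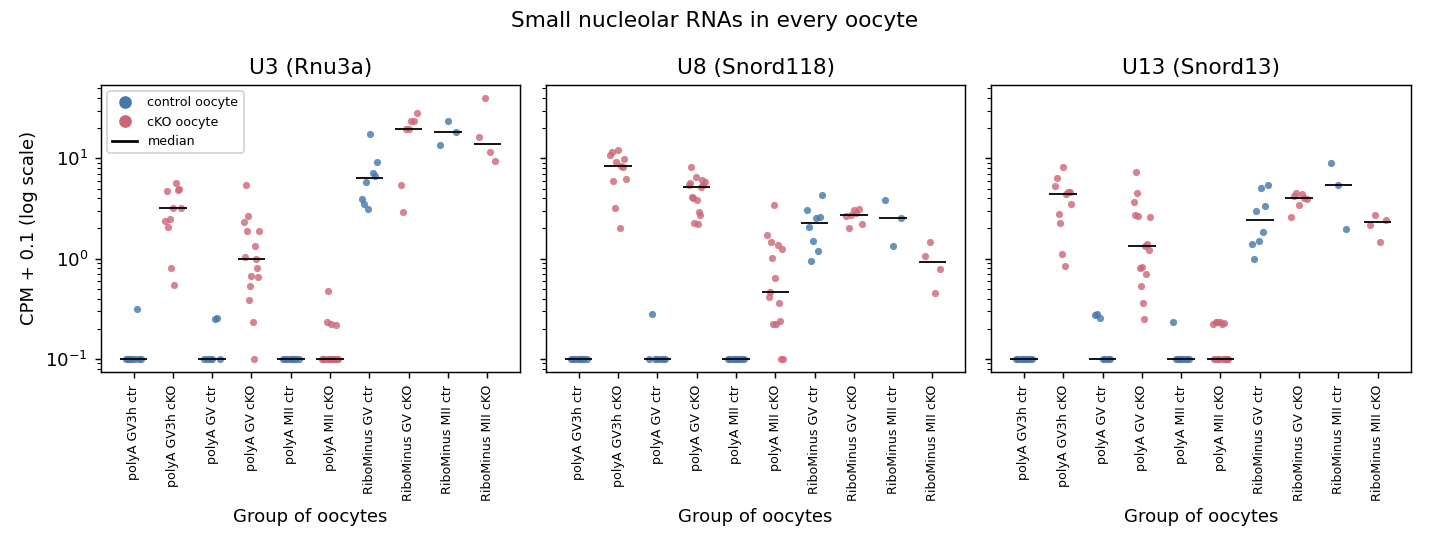
CPM + 0.1 (log axis) of U3, U8 and U13 in every oocyte, by library type, stage and genotype, with the median of each group as a line. PolyA controls sit at or near the floor of the axis, at 0 or 1 count, for all 3. Nearly all polyA GV3h and GV cKO oocytes lie above it, and RiboMinus oocytes of both genotypes overlap.

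Protein-coding genes made up most of the list. Of the 74 members 58 (78.4%) were protein coding, 4 were snoRNA entries, 4 were lincRNAs, 3 carried the provisional class TEC, 2 were antisense RNAs, and 1 each was a bidirectional promoter lncRNA, a processed pseudogene and a processed transcript. Among all genes with a GV3h cKO median of at least 20 counts, 87.9% were protein coding and 0.03% were snoRNAs. Those snoRNAs were the 4 member entries themselves. Among all genes with at most 3 counts in every GV3h control, 21.1% were protein coding and 4.02% were snoRNAs, against 5.41% of members. How the member shares compare therefore depends on the gene set used. By name, 56 members had an ordinary gene symbol, 9 were predicted genes, 3 were RIKEN genes and 2 had a symbol ending in os. Of those 2 only B9d1os is an opposite-strand transcript, and the other is the coding gene Selenos. The reverse rule, silence in every cKO oocyte and a control median of at least 20, was met by a single gene, Abca9 (a lipid transporter of the ABC family), with at most 1 count in cKO and 24 to 56 (median 34) in control oocytes.

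At GV3h, 10 of the 74 members had a cKO oocyte at 0. Across cKO oocytes 59 to 74 members (median 73) had more than 3 counts, against 0 in each control by the rule. The member RNAs summed to 150.2 to 914 CPM (median 439) in cKO oocytes and 5.85 to 11.4 CPM (median 7.92) in controls. They were therefore a small share of the library even where they were highest. Just inside the knockout threshold, 12 members had medians of 20 to 22, and just outside it 9 genes silent in controls had medians of 18 or 19. Just inside the control threshold, 27 members reached 3 counts in a control, and 31 genes outside it reached 4. The cKO oocytes were sequenced more deeply (5476376 to 8415126 counts) than the controls (4638718 to 5728197), and raw counts are not scaled for that. With thresholds set on CPM (0.647 and 3.65 CPM), 46 of the 74 remained. These equal 3 and 20 counts in the shallowest control and cKO oocyte, so they could only remove genes and no other gene could come in. Without control female V995 the raw rule gave 130 genes.

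The cKO females differed from one another at GV3h. Female V993 had the highest mean of 47 members, V946 of 15 and V983 of 12, and the top female held 33.7% to 69.9% (median 46.0%) of the sum of the 3 female means. Usp17lc, a deubiquitinase of the Usp17 family, had the 69.9%, with female means of 2.92, 4.05 and 16.1 CPM and oocytes from 0 to 221 counts. Hoxd1, a homeobox transcription factor, was 14.8 CPM in V946 and 2.48 and 5.53 CPM in the others. Deup1, which builds centrioles in multiciliated cells, and Slc35e1, a nucleotide sugar transporter family member, also had over 60% in 1 female, and both are named here after their values were seen.

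**Figure D2:**
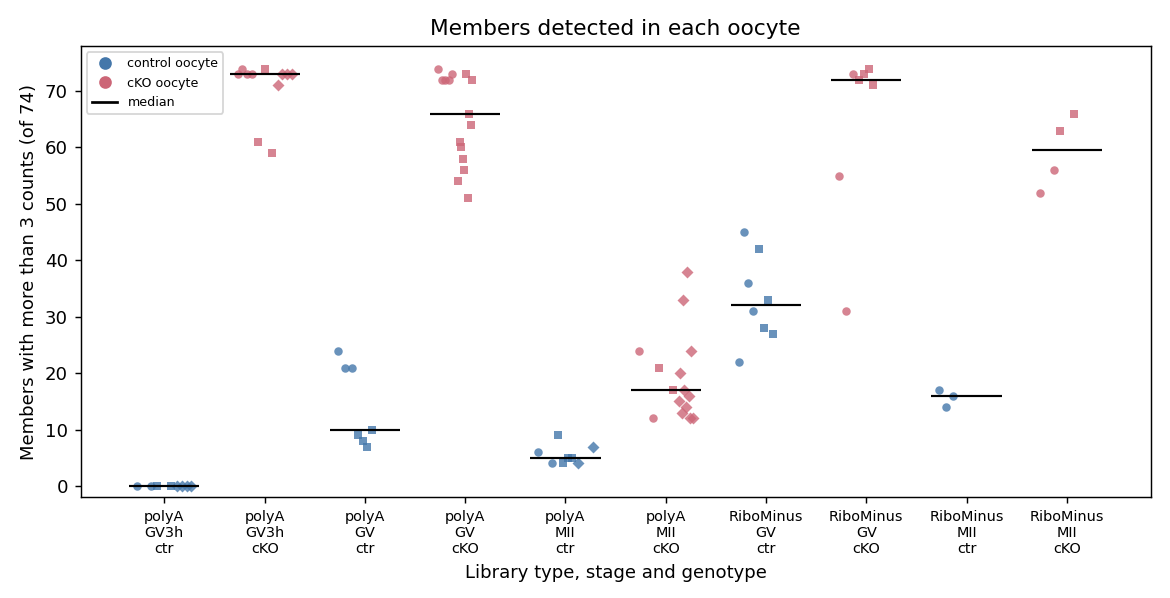
Members with more than 3 counts in each oocyte (y axis, of 74), by library type, stage and genotype, with marker shapes for the females within a group and the group median as a line. The polyA GV cKO oocytes lie at 51 to 74 and their controls at 7 to 24, while polyA MII cKO eggs lie mostly near the controls.

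In the other groups the median cKO oocyte held more detected members than the median control, and the cKO median was lowest in polyA libraries at MII. The number with more than 3 counts was 51 to 74 (median 66) in polyA GV cKO oocytes and 7 to 24 (median 10) in controls. At polyA MII it was 12 to 38 (median 17) and 4 to 9 (median 5). In RiboMinus libraries it was 31 to 74 (median 72) against 22 to 45 (median 32) at GV, where the ranges overlapped, and 52 to 66 (median 59.5) against 14 to 17 (median 16) at MII. Silence in every control did not hold for all members elsewhere: 27 of 74 stayed at or under 3 counts in every polyA GV control, 56 in every polyA MII control, 10 in every RiboMinus GV control and 45 in every RiboMinus MII control. The full rule was met by 10 members of the 24 genes that met it at polyA GV, 1 of 11 at polyA MII, 4 of 24 at RiboMinus GV and 29 of 965 at RiboMinus MII, where the controls were 3 eggs.

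At polyA GV the fitted log2 difference was above 0 for 73 of the 74 members, with a median of 3.92 against 0.04 over all 18010 genes tested. Of the members 11 were called higher and 0 lower on female sums, where 1.13% of genes tested were called higher. The groups of oocytes did not overlap for 16 members, where the lowest cKO oocyte lay above the highest control in 3.24% of genes tested. With the oocyte as the replicate 65 of 67 members tested were called higher, where 22% of genes tested were, but oocytes of a female are not independent. The 11 were Mcrip1, Dusp5, Zfp622, Xpot, Snord118, Haghl, Trim25, Tsga8, A530001N23Rik, Lzts3 and Cyb5r1. All 74 members passed the filter on low counts, in part through the cKO group itself. Leaving out control female V856 or V889 left 0 members called, where 0.0489% and 0.00523% of genes were called higher, and leaving out cKO female V857 left 2, where 0.514% were.

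At polyA MII 64 of 74 members had a difference above 0 (median 3.59, against 0.08 over all genes). The median cKO egg lay above the median control egg for only 24 of the 74. The filter on low counts ran over GV and MII groups together, so members could pass it through the GV cKO group. On female sums 11 were called higher and 0 lower, where 7.07% of genes tested were called higher. Only Ppp1r12c and A530001N23Rik had every cKO egg above every control, where 2% of genes tested did, and with the oocyte as the replicate 3 of 6 members tested were called, where 19% of genes were. The 11 calls included Mcrip1, Snord118, Pitpnb, A530001N23Rik, Sccpdh, Ppp1r12c, Cyb5r1, Sv2a, B9d1os and Gm43689. Most of them rest on a few counts: Mcrip1 was 0 in 8 control eggs and 0 to 21 (median 0) in cKO eggs. Leaving out control female V853 lowered the count to 5, where 5.11% of genes were called higher, and leaving out cKO female V842 lowered it to 6, where 3.56% were. Mcrip1, Sccpdh, Sv2a, Pitpnb and Gm43689 lost the call in both of these fits, and B9d1os without V853. Mcrip1 also lost it without V897, Pitpnb without V897, V836 or V896, and Gm43689 without V897, V841 or V896. The 8 blood and immune markers summed to at most 6.21 CPM in cKO eggs (3 of the 8 at 0) and 0.944 CPM in control eggs (5 of the 8 at 0), and their part in these calls was not tested.

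At RiboMinus GV 73 of 74 members had a difference above 0 (median 3.70, against 0.04 over all genes), and 0 were called on female sums, where 0.0275% of genes tested were called higher. At an unadjusted p under 0.05 there were 61 members, as were 14.7% of genes tested. DESeq2 called 43 higher on the same sums, where it called 4.65% of genes higher. Without female V1126, which leaves 1 cKO female against 2 controls, edgeR called 31, where 2.91% of genes were called higher. Without V1131, V1132 or V1133 it called 0. The members summed to 26.6, 114.4 and 349.6 CPM in the 3 oocytes of V1126, against a mean of 655 CPM in the other cKO female, V1131, and 34.3 and 45.4 CPM in the control females. Of the 3, oocytes V1126_3 and V1126_2 were the low ones, with 31 and 55 members over 3 counts, and the other had 73. With the oocyte as the replicate 32 of 38 members tested were called higher, where 21.2% of genes were. Oocytes did not overlap for 2 members, Ilvbl and Jade1, where 0.909% of genes tested did not.

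At RiboMinus MII 62 of 74 members had a difference above 0 (median 4.74, against 0.25 over all genes). On female sums 24 were called higher, where 3.61% of genes tested were, and 1 lower, where 3.69% of genes tested were. Oocytes did not overlap for 37 members, where this held for 16.1% of genes tested, and with the oocyte as the replicate 26 of 54 members tested were called higher, where 13.9% of genes were. The controls were 3 eggs of 1 female, which the fit assumes to vary like the other groups, so every RiboMinus MII call given here and below compares 2 cKO females with 1 control female. Without cKO egg V1166_2 the calls fell to 13, where 1.51% of genes were called higher. Some markers of other cells were also higher in the cKO eggs: the 8 blood and immune markers summed to 60.01, 0.435, 0.199 and 2.06 CPM against 0 to 0.0978 CPM in controls, with 3 of the 8 at 0 in the cKO eggs. The 7 theca and stroma markers summed to 2.94 to 40.4 CPM against 0.801 to 3.31 CPM (1 at 0 in cKO eggs), and the 4 endothelium markers to 79.1 to 102.3 CPM against 24.8 to 40.1 CPM (0 at 0 in cKO eggs). The 16 cumulus and granulosa markers ran the other way, 78.2 to 127.5 CPM against 143.9 to 158.7 CPM, with 3 and 5 of the 16 at 0. At RiboMinus GV the endothelium markers summed to 59.4 to 119.4 CPM in cKO oocytes and 47.4 to 75.0 CPM in controls. For these markers the MII control eggs lay below both GV ranges. The part of all these markers in the result was not tested. Without the egg with 60.01 CPM of blood markers, V1166_1, 14 members were called, where 1.75% of genes were called higher. The fitted log2 difference of Zfp622 was 6.96 without that egg and 6.74 with it. It was 10.55 and 10.90 for Dusp5, which lost its call, and 3.64 and 4.61 for A530001N23Rik. Of the members described below, Dusp5, A530001N23Rik and Gm26695 lost the call without V1166_1, Ppp1r12c, Sccpdh, Sv2a and Gm26695 without V1166_2, and Sv2a and Gm26695 without V1167_1. Xpot lost it without V1166_1, V1166_2, V1167_1 or control egg V1145_4, and without female V1166. Deup1 lost its call lower without either egg of V1166, V1167_2 or control egg V1145_4.

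**Figure D3:**
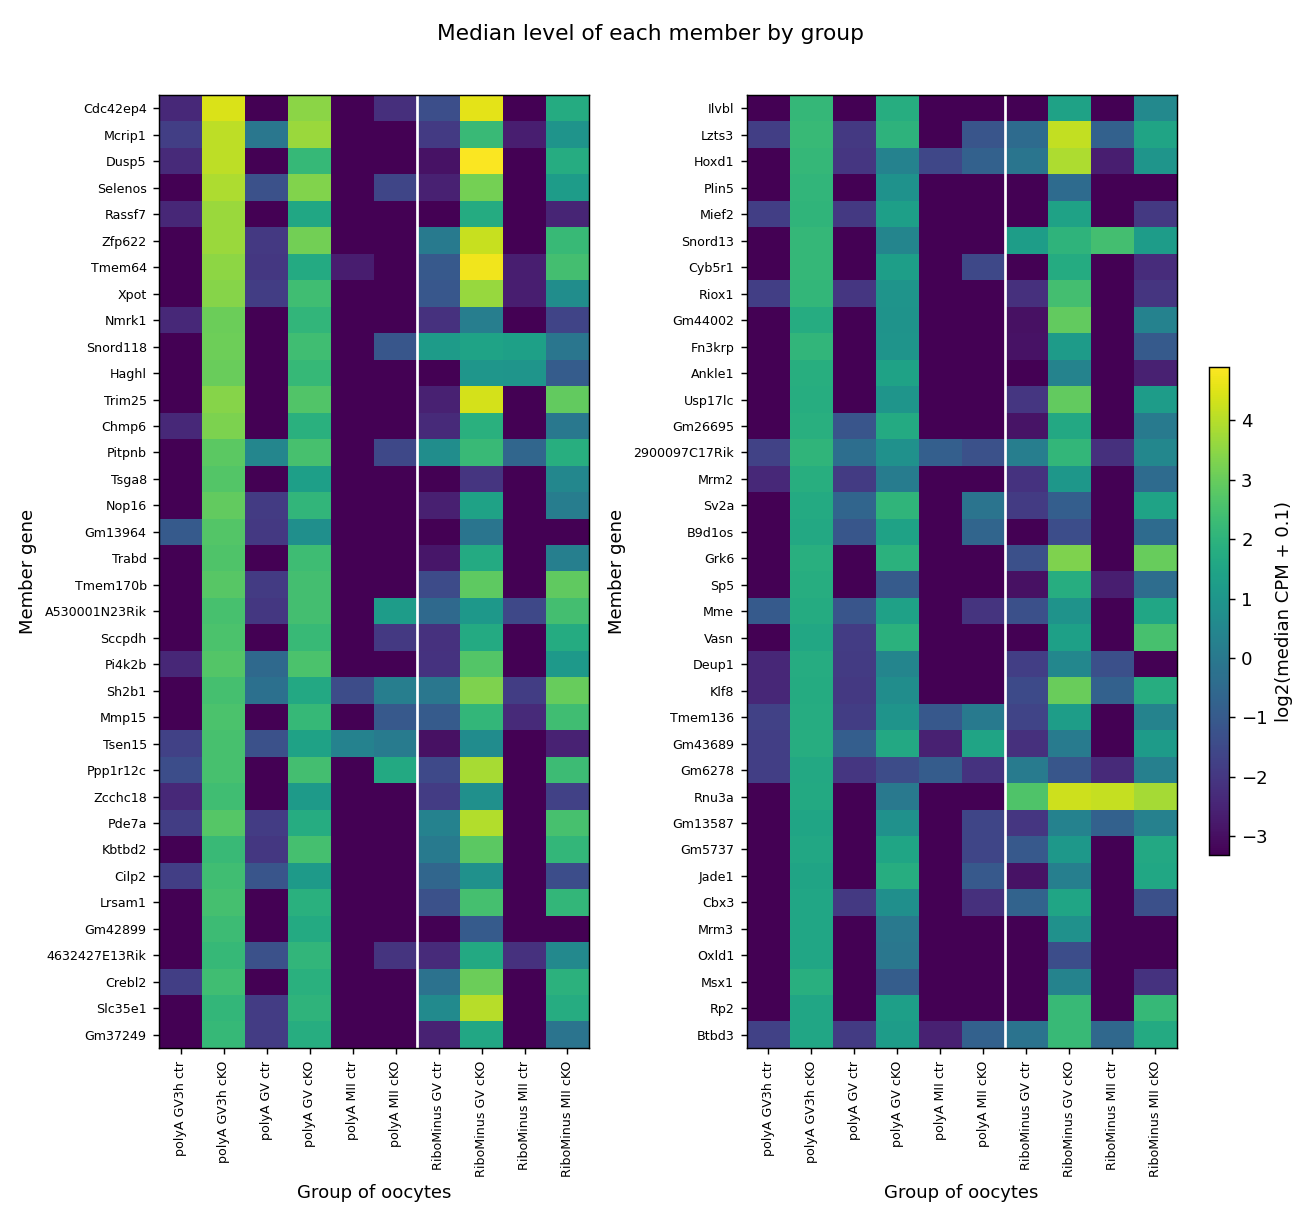
Level of 72 of the 73 loci (rows, ordered by GV3h cKO median) as log2 of the group's median CPM + 0.1, in the 10 groups (columns). The cKO columns of polyA GV3h, polyA GV, RiboMinus GV and RiboMinus MII are high for most rows, while the polyA MII cKO column is near its control.

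The coding members were sorted by role after their values were seen, so the counts per role given below are descriptions. They stand beside 1.13%, 7.07%, 0.0275% and 3.61% of all genes tested called higher at polyA GV, polyA MII, RiboMinus GV and RiboMinus MII. Signalling genes included the highest member. Cdc42ep4, which binds the small GTPase CDC42 and shapes actin, topped the list at GV3h with 29 to 446 counts (median 183) in cKO oocytes and at most 2 in controls. In polyA GV oocytes there were 18 to 295 counts (median 84) of it in cKO and 0, 0, 0, 0, 1, 8 and 29 in controls. The 3 RiboMinus MII control eggs were at 0 and the cKO eggs at 79, 81, 82 and 159, at least 53.4-fold higher and called (edgeR, adjusted p = 0.0139). The control with 29 counts overlapped the cKO range, and that contrast was not called.

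Dusp5, a nuclear phosphatase of the kinase ERK, had 5 to 366 counts (median 117) at GV3h in cKO oocytes and at most 2 in controls. At polyA GV it had 4 to 267 (median 29) against 0 to 5 counts, a log2 difference of 6.04 ± 0.96 (SE) that was called (edgeR, adjusted p = 0.014). At RiboMinus GV its cKO counts were 1, 6, 550, 566, 599, 954 and 1160 against 0 to 2 in 8 controls, and the values of 1 and 6 came from female V1126, whose other oocyte had 566. Its RiboMinus MII counts were 0 in all controls and 14, 107, 124 and 229 in cKO eggs, at least 63.1-fold higher and called (edgeR, adjusted p = 0.0365). Dusp5 lies at chr19:53529109-53542431 (GRCm38, plus strand) and is 1 of 12 members called in more than 1 of the 4 genotype contrasts.

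Ppp1r12c, a regulatory subunit of myosin phosphatase, was among the few that stayed high in mature eggs in both library types. Its polyA GV counts were 17 to 91 (median 38) in cKO oocytes and 0 to 7 in controls, whose ranges did not overlap. At polyA MII it had 3 to 72 (median 25) against 0 in 7 control eggs and 2 in 1, a pooled ratio of 118 (exact counting interval 32.5 to 978.5) that was called (edgeR, adjusted p = 0.0119). At RiboMinus MII the counts were 118, 121, 173 and 313 against 0, 0 and 2, also called (edgeR, adjusted p = 0.0333).

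The phosphoinositide enzymes Pitpnb (a lipid transfer protein) and Pi4k2b (a lipid kinase) showed that some members were not silent in GV controls. Pitpnb had 0, 1, 1, 7, 10, 18 and 21 counts in polyA GV controls and 18 to 92 (median 35) in cKO oocytes. The highest controls, at 18 and 21, were of female V856, whose mean was 2.56 CPM against 0.47 CPM in V889. Pitpnb was 0 in all 8 polyA MII controls and 0 to 32 (median 2) in cKO eggs, at least 13.9-fold higher and called (edgeR, adjusted p = 0.0344), a call lost when any of 5 of the 6 females was left out. Pi4k2b had 22 to 61 counts (median 38) in polyA GV cKO oocytes and 0 to 8 in controls, which did not overlap, yet was not called (log2 difference 2.93 ± 1.243, edgeR, adjusted p = 0.222). Sh2b1, an adaptor of receptor tyrosine kinases, had 0 to 7 counts in GV controls and 0 to 18 in MII controls.

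Of the 10 signalling members 1 was called higher at polyA GV, 2 at polyA MII, 0 at RiboMinus GV and 5 at RiboMinus MII, with median log2 differences of 3.44, 4.86, 4.08 and 5.75. Rassf7, of the Ras-association family, had 8 to 186 counts (median 94) at GV3h and was not called in any contrast. Its 7 polyA GV controls were at 0 to 28 counts, the 28 in 1 oocyte of V889. Rp2 (a GTPase-activating protein for ARL3) and Grk6 (a kinase of G protein-coupled receptors), named after their values were seen, had cKO medians of 20 and 24 counts at GV3h. At RiboMinus MII Rp2 was 0 in all controls and 77, 90, 228 and 328 in cKO eggs, at least 96.3-fold higher and called (edgeR, adjusted p = 0.03).

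Transcription and chromatin genes were 8, and Mcrip1 was the highest of them. Mcrip1, an ERK-regulated binding partner of the co-repressor CtBP, had 39 to 437 counts (median 142) at GV3h in cKO oocytes. At polyA GV it had 28 to 282 (median 89) against 3, 3, 4, 5, 6, 11 and 14 in controls, with no overlap, a log2 difference of 3.74 ± 0.80 that was called (edgeR, adjusted p = 0.0412). Mcrip1 was therefore present at a low level in GV controls although silent in GV3h controls. Hoxd1 had 8 to 150 counts (median 31) at GV3h and 0 to 101 (median 8) at polyA GV, where it was not called. At RiboMinus GV its cKO counts were 5, 5, 256, 260, 355, 591 and 689 against 3 to 31 in controls. Of these 8 members 1, 1, 0 and 2 were called higher at polyA GV, polyA MII, RiboMinus GV and RiboMinus MII.

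Genes for handling RNA and ribosomes included several that act in the nucleus or on tRNA. Zfp622, which matures the large ribosomal subunit, had 11 to 217 counts (median 84) at GV3h in cKO oocytes and at most 1 in controls. At polyA GV it had 4 to 149 (median 50) against 0 to 7, a log2 difference of 4.58 ± 0.92 that was called (edgeR, adjusted p = 0.034). At polyA MII it did not exceed 4 counts in any egg, whereas at RiboMinus MII it had 99 to 228 (median 136) against 0 to 2, called (edgeR, adjusted p = 0.0178). Zfp622 was thus plentiful in RiboMinus libraries of cKO eggs and close to 0 in polyA libraries of cKO eggs.

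Xpot, the nuclear exporter of tRNA, had 1 to 212 counts (median 72) at GV3h and was uneven between oocytes. Its polyA GV counts were 1 to 231 (median 35) against 0 to 3, and the female means were 26.9 CPM in V857 and 3.26 CPM in V888. The log2 difference of 5.93 ± 1.14 was called (edgeR, adjusted p = 0.023). Tsen15, a subunit of the tRNA splicing endonuclease, behaved differently at MII, where controls had 1, 3, 6, 7, 11, 11, 14 and 23 counts and cKO eggs 0 to 33 (median 8). Of the 7 members of this group 2, 0, 0 and 2 were called higher in the 4 contrasts. The mitochondrial ribosomal RNA methyltransferases Mrm2 and Mrm3 were in it, at GV3h cKO medians of 25 and 20 counts, and neither was called.

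Ubiquitin genes were 4, of which 1, 0, 0 and 2 were called higher in the 4 contrasts. Trim25, a ubiquitin ligase that also binds RNA, is named after its values were seen: at polyA GV it had 6 to 167 counts (median 41) against 0 to 3, a pooled ratio of 110.5 (exact counting interval 37.7 to 537). It was called there (edgeR, adjusted p = 0.0489). At RiboMinus MII it was 0 in all controls and 58 to 427 (median 268.5) in cKO eggs, at least 136-fold higher, but it was not called (edgeR, adjusted p = 0.0704). Usp17lc, the member that is also in the list of 2-cell embryo genes, had 0 to 78 counts (median 10) at polyA GV against 0 in 6 controls and 1 in the other, and was not called (edgeR, adjusted p = 0.0669). It belongs to a family of near-identical copies, so its counts are uncertain.

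Genes of membranes and the cell surface were the largest coding group, with 12 members and 0, 2, 0 and 8 called higher in the 4 contrasts. Selenos, a selenoprotein of endoplasmic reticulum degradation, had 18 to 225 counts (median 117) at GV3h and 36 to 156 (median 72) at RiboMinus MII against 0, 0 and 1, where it was called (edgeR, adjusted p = 0.0228). Tmem64, a transmembrane protein, had 3 to 116 counts (median 80) at GV3h, but 1 control egg had 69 counts at RiboMinus MII and the contrast was not called. Sv2a, a synaptic vesicle glycoprotein, was called at both MII contrasts (edgeR, adjusted p = 0.021 and 0.037) and not at GV, where controls reached 22 counts.

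Genes of metabolism and mitochondria were 9, with 2, 2, 0 and 1 called higher. Nmrk1, the kinase of nicotinamide riboside, had 5 to 103 counts (median 66) at GV3h and was not called in any contrast. Sccpdh, a member of the saccharopine dehydrogenase family, was called at polyA MII, where it was 0 in 8 controls and 0 to 30 (median 1) in cKO eggs (edgeR, adjusted p = 0.0204). At RiboMinus MII it was 0 in all controls and 68 to 184 (median 123) in cKO eggs, at least 66.3-fold higher and called (edgeR, adjusted p = 0.0333). Cyb5r1, an NADH-cytochrome b5 reductase, was called in both polyA contrasts (edgeR, adjusted p = 0.0348 and 0.0116) from cKO medians of 17 and 2 counts. Plin5, a coat protein of lipid droplets named after its values were seen, was 0 in every control oocyte of all 5 groups. In cKO oocytes it had 0 to 79 counts (median 30) at GV3h, 0 to 81 (median 12) at polyA GV and 0 to 51 (median 15) at RiboMinus GV, and it was 0 in every MII egg.

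Among the 12 long noncoding, antisense, TEC and pseudogene members, A530001N23Rik was called most often. This lincRNA lies at chr13:60483504-60488808 (GRCm38, minus strand) and was the only member called in 3 of the 4 genotype contrasts. It had 20 to 94 counts (median 46) at GV3h and 12 to 78 (median 38) at polyA GV, against 0, 0, 0, 1, 1, 1 and 2 in GV controls, with no overlap. The polyA GV log2 difference was 5.27 ± 0.92 (edgeR, adjusted p = 0.0174). At polyA MII it kept 3 to 42 counts (median 17) against 0 to 2 in controls, a pooled ratio of 55.2 (exact counting interval 18.7 to 269), also called (edgeR, adjusted p = 0.0029). At RiboMinus MII it had 17, 124, 145 and 500 against 0, 4 and 7 (log2 difference 4.61 ± 0.86, edgeR, adjusted p = 0.0243), but without cKO egg V1166_1 the difference was 3.64 and no longer called. At RiboMinus GV the difference was 2.23 ± 0.56 and was not called (edgeR, adjusted p = 0.147). Its cKO and control oocytes overlapped there, at 10 to 119 and 0 to 15 counts.

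The other noncoding members differed in where they were seen. Gm43689, a lincRNA named after its values were seen, had 9 to 35 counts (median 20) in polyA MII cKO eggs against 0 to 11 in controls and was called (log2 difference 3.07 ± 0.87, edgeR, adjusted p = 0.0424). B9d1os, of the antisense class and named after B9d1, was also called at polyA MII (edgeR, adjusted p = 0.0147), from 0 to 18 counts (median 4) against 0 in 7 controls and 1 in 1. Gm26695 was 0 in every GV3h and polyA MII control but reached 9 counts in a polyA GV control. It was called at RiboMinus MII, where controls were 0 and cKO eggs had 0, 21, 61 and 67 (edgeR, adjusted p = 0.0388). The TEC transcripts Gm42899 and Gm37249 had GV3h cKO medians of 35 and 32 counts and were called in none of the 4 contrasts.

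Gm42899 had 0 counts in every RiboMinus MII egg and 0 to 17 (median 8) in RiboMinus GV cKO oocytes, although those libraries were deeper than the polyA libraries, where GV cKO oocytes had a median of 22. The antisense RNA Gm13964 (48 counts at GV3h), the bidirectional promoter lncRNA 4632427E13Rik (34) and the processed transcript Gm13587 (21) also had positive differences at polyA GV and were not called. Gm13964 overlaps Fmn1 on the opposite strand, and whether the counting used strand is not given in the sources used here. B9d1os and 4632427E13Rik overlap no other gene. The 12 noncoding members gave 1, 3, 0 and 3 calls in the 4 contrasts.

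A few members went against the list's name. The processed pseudogene Gm6278 had 0 to 32 counts (median 23) at GV3h, with means of 3.75 and 3.76 CPM in females V946 and V983 and 0.0706 CPM in V993. At polyA GV it was high in 1 female of each genotype, 6.26 CPM in cKO V857 and 6.86 CPM in control V856, and near 0 in the others, a log2 difference of -0.27 ± 1.77. It thus varied between females rather than with genotype there. Haghl, a hydrolase-like gene named after its values were seen, was called higher at polyA GV (0 to 2 counts in controls, 3 to 131 in cKO oocytes). At RiboMinus MII it had 30, 37 and 57 counts in controls and 5, 11, 15 and 30 in cKO eggs, a log2 difference of -2.35 ± 1.203 that was not called (edgeR, adjusted p = 0.242). Deup1 was the 1 member called lower, at RiboMinus MII, where 3.69% of genes tested were, from 0, 5 and 18 counts in controls and 0 in all 4 cKO eggs (edgeR, adjusted p = 0.0378).

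In cKO oocytes of the polyA libraries, 47 members were called lower at MII than at GV and 0 higher, where 21.7% of genes tested were called lower. The log2 difference was below 0 for 73 members, with a median of -3.90 against -0.24 over all genes. Zfp622 (-6.96 ± 0.92), Xpot (-6.43 ± 0.99), Usp17lc (-5.35 ± 1.26) and Dusp5 (-5.20 ± 0.77) were among the 47. Stage went with collection, since GV oocytes were cultured and MII eggs came from oviducts of other females, and these cannot be told apart. Leaving out cKO female V857 lowered the 47 to 11, where 14.5% of genes were called lower.

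Not all members were lost at MII. A530001N23Rik (log2 difference -0.34, 95% interval -1.77 to 1.08), Ppp1r12c (-0.39, -2.46 to 1.69) and Gm43689 (0.64, -1.27 to 2.55) were not called lower. These 3 had the highest cKO medians at polyA MII, at 17, 25 and 20 counts. The median cKO count was at most 3 for 64 members at polyA MII, but for 9 at RiboMinus MII, where it was at least 20 for 53. These are raw counts, and the RiboMinus MII cKO eggs were deeper, with a median total of 24976736 counts against 8002713 in polyA MII cKO eggs. Whether the genotype difference itself was smaller at polyA MII than at GV was tested as an interaction, and 0 members were called in either direction (edgeR). At an unadjusted p under 0.05 there were 8 members, and 2239 of the 18010 genes tested. DESeq2 called a smaller difference at MII for 2 members, Xpot and Tsen15, where it did so for 1.39% of genes and called a larger one for 2.44%. Many groups are at 0 there, which leaves that test imprecise.

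**Figure D4:**
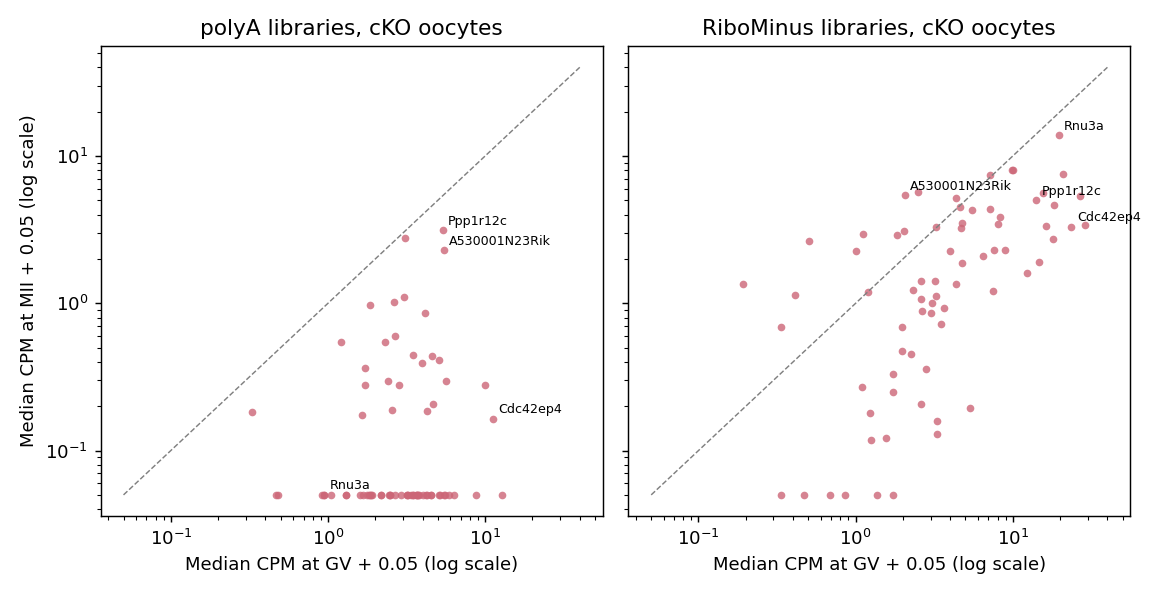
Median CPM + 0.05 in cKO oocytes at MII (y axis) against GV (x axis), 1 point for each of 72 of the 73 loci, log axes, for polyA (left) and RiboMinus (right) libraries, with a dashed line at equality. In the polyA panel nearly all points lie below the line and many at the floor, and in the RiboMinus panel most stay well above the floor.

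Exosome genes themselves were also looked up, from a list that holds no member. Of 20 genes of the nuclear exosome and its cofactors, all tested, only Exosc10 was called at polyA GV and RiboMinus GV, lower in both. At polyA MII Rbm7 and Zfc3h1, cofactors that bring the exosome to its RNAs, were called higher, by 0.84 and 0.66 on the log2 scale (edgeR, adjusted p = 0.0231 and 0.0382). At RiboMinus MII the core subunits Exosc6 and Exosc1 were called, by 2.98 and -1.37 (edgeR, adjusted p = 0.0387 and 0.0264). The differences of these cofactors were smaller than the median of the members in the same contrast at polyA MII. The members were chosen for near-silent controls at GV3h, so these sizes cannot be weighed against each other.

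Position and structure were read from GENCODE M21. Of the 74 members 29 (39.2%) overlapped another gene entry, against 58.9% of genes with a GV3h cKO median of at least 20 counts. The 29 include the pair of U3 entries, which overlap only each other. Only 8 (10.8%, against 28.9%) overlapped a gene with a median of at least 20 counts in GV3h controls. The comparison genes need not be silent in controls and the strand setting of the counting is not given. The overlap shares are therefore not independent of the rule. A detected gene on the same strand ended within 10 kb upstream of 12 members (16.2%, against 13.3%), among them Selenos downstream of Snrpa1, Rassf7 downstream of Lrrc56, Sv2a downstream of Sf3b4 and Snord118 downstream of Tmem107. Most members therefore had no detected neighbour directly upstream. Protein-coding members had a median span of 12648.5 bp and 6.5 exon blocks, against 26437 bp and 10 for coding genes with a cKO median of at least 20 and 17470 bp and 7 for all coding genes. The members lay on many chromosomes, with 10 on chromosome 11 and 8 on chromosome 2.

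Promoters in the RefSeq-derived table, 250 bases before to 50 after the start, were given for 54 members (77 promoters). Their median GC content was 61.7%, against 60.3% for promoters of genes with a GV3h cKO median of at least 20 and 52.7% for all promoters. The letters TATAAA, searched on both strands, were in 1 of 77 (1.30%), against 7.27% and 13.6%. The metal response core TGCNCNC was in 51 (66.2%), against 59.8% and 51.0%. These promoters were thus close to those of other genes present in these oocytes, with few TATA words.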

How the data were processed

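Single-oocyte RNA was measured in 64 polyA and 22 RiboMinus libraries. Each deposited file gives the raw counts of 1 library by Ensembl gene, with 5 summary lines for reads outside genes and similar classes, which were left out of totals. Reads outside genes came to 5.85% to 14.2% of gene counts and summary lines together. Per the submitters' processing notes the authors used cutadapt 2.5, FastQC 0.11.8, STAR 2.7.2a, SAMtools 1.9, HTSeq 0.9.1, R 3.5.1 and DESeq2 1.24.0 with mm10. The strand setting, annotation release and duplicate removal are not given in the sources used here, and PCR copies could inflate single-oocyte counts. Spike-in RNA was added per the labels, but the files held 0 ERCC lines, so every level is relative to the rest of its library.

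Counts were summed per female and tested with edgeR 4.0.16 (R 4.3.3) by quasi-likelihood F tests, two-sided, with TMM factors and filterByExpr, in 1 fit per library type over GV and MII by genotype. P-values were Benjamini-Hochberg adjusted over all genes tested (18010 polyA, 25425 RiboMinus) and called under 0.05. PolyA GV3h was left out of the fits because it chose the members. SEs are the log2 difference divided by the square root of F, and 95% intervals use the moderated degrees of freedom. A ratio against a group with 1 to 3 counts has an exact binomial interval, and one against a group at 0 is a lower bound from 3 counts over the group. These cover counting error only. The V number in the titles was read as the donor female, which the labels do not state. The p-values measure the spread between V numbers, which could instead mark a collection or a batch. The scripts were tested on simulated data. Alternatives were DESeq2 1.42.0, its size factors, library totals, no filter, only the groups compared, the oocyte as the replicate, leaving out females (or oocytes at RiboMinus MII), and other member thresholds. Python 3.11.15, numpy 2.4.6, pandas 2.3.3, scipy 1.17.1 and matplotlib 3.10.9 were used.

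The members and lists were chosen with earlier results of these data known. Named members were the 10 with the highest GV3h cKO median, up to 10 called in most contrasts, the top 2 of each biotype, up to 5 with the highest polyA GV or MII control median, and members of the lists. Groups by role were assigned after values were seen. Gene names and positions came from GENCODE M21 (GRCm38), which held 55394 of the 55573 gene IDs. Hand-written gene lists (exosome, cell type markers and others) were counted in each contrast. The values of 1 member and 1 transcript sequence are not reported here.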

Additional observations from a re-analysis of the deposited data

Results flagged for a closer look

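In groups of 4 to 10 oocytes of the named members, 16 of 124 groups had 1 oocyte far from the rest by Dixon's criterion. Its usual chance rate of about 1 of 20 groups assumes normal values, and many values here are 0. The polyA cKO groups, of 11 and 15 oocytes, were too large to be included. Most of the flagged oocytes were controls with a level above the others. In polyA GV controls these were Cdc42ep4 at 5.00 CPM (next oocyte 1.45), Rassf7 at 4.23 CPM (0.298), Ppp1r12c at 1.26 CPM (0.518) and Dusp5 at 0.755 CPM (0.31). In polyA MII controls they were Tmem64 at 1.76 CPM (0.678), Selenos at 0.946 CPM (0) and Xpot at 0.52 CPM (0.135), all in eggs of V853. In RiboMinus GV controls they were U3 (Rnu3a) at 17.2 CPM (9.16), Xpot at 2.20 CPM (1.01), Ppp1r12c at 1.78 CPM (0.342), Gm37249 at 1.33 CPM (0.238), Sccpdh at 0.893 CPM (0.298), Tsen15 at 0.595 CPM (0.144) and 4632427E13Rik at 0.534 CPM (0.191). In RiboMinus MII cKO eggs they were Ppp1r12c at 8.37 CPM (4.99) and Cyb5r1 at 2.31 CPM (0.121).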

How the results depend on the processing

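Shares in parentheses are of all genes tested called in the same direction. The choice of members rested on its thresholds: 74 became 20 and 148 with a control maximum of 1 and 5 counts, 200 and 15 with a cKO median of 10 and 50, 46 with CPM thresholds, and 61 to 130 when a GV3h female was left out (130 without control V995). At polyA GV the 11 calls (1.13%) became 31 with DESeq2 (4.9%), 45 without the filter (2.4%), 0 with only the groups compared (0.00555%), 65 with the oocyte as the replicate (22%), 3 and 19 with a control maximum of 1 and 5, and 0 to 16 when a female was left out (0.00523% to 2.51%). At polyA MII the 11 (7.07%) became 21 with DESeq2 (11.5%), 30 without the filter (5.62%), 5 with only the groups compared (8.94%), 3 with the oocyte as the replicate (19%), 2 and 25 with a control maximum of 1 and 5, 24 and 3 with a cKO median of 10 and 50, 7 with CPM thresholds, and 5 to 12 when a female was left out (3.56% to 5.64%). At RiboMinus GV the 0 (0.0275%) became 43 with DESeq2 (4.65%), 47 without the filter (3.09%), 32 with the oocyte as the replicate (21.2%), 2 with a control maximum of 5, and 0 to 31 when a female was left out (0.00399% to 2.91%). At RiboMinus MII the 24 (3.61%) became 42 with DESeq2 (12.8%), 42 without the filter (6.39%), 4 and 42 with a control maximum of 1 and 5, 37 and 6 with a cKO median of 10 and 50, 14 with CPM thresholds, and 13 to 28 when a female or egg was left out (1.51% to 7.54%). The 47 called lower at MII (21.7%) became 21 with the oocyte as the replicate (41.7%) and 11 to 42 when a female was left out (14.5% to 18.5%). The 0 interaction calls of a smaller difference (0%) became 2 with DESeq2 (1.39%), 4 without the filter (0.887%), 6 with the oocyte as the replicate (5.17%), and 0 to 1 when a female was left out (1 without V888, 1.64%). The cause was not tested. Scaling by DESeq2 size factors or library totals kept each of these counts within 1.5 times. For named members, 513 alternative values of 45 called differences gave 0 changes of direction, 429 on the same side of the threshold and 84 past it no longer. No paired analysis was possible because no V number is shared between genotypes and oocyte numbers only count oocytes within a female. A group at 0 counts allows up to 3 counts, which limits what depth can show for the low members.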

Other observations

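Gene groups outside the member list were counted in the same fits (edgeR quasi-likelihood test on female sums, Benjamini-Hochberg adjusted p under 0.05). None of the counts is tested against other genes. The metal response list, with metallothioneins, zinc transporters and Mtf1, had 1 of 6 tested genes called higher at polyA GV, 0 of 6 at polyA MII, 1 of 7 at RiboMinus GV and 2 of 7 at RiboMinus MII, and 0 called lower. The interferon response list had 0 of 9, 1 of 9, 0 of 16 and 3 of 16 called higher in the same order, and 0 lower. Of the p53 targets 0 of 7, 1 of 7, 0 of 9 and 2 of 9 were called higher, and 1 was lower at polyA MII. The 2-cell embryo list, which holds Usp17lc, had 1 higher and 1 lower of 8 at polyA GV, 0 and 2 of 8 at polyA MII, 0 and 0 of 12 at RiboMinus GV, and 3 and 1 of 12 at RiboMinus MII. Germline and growing oocyte regulators had 1 of 9, 4 of 9, 0 of 10 and 0 of 10 called higher, and 1 lower at RiboMinus MII. Cancer-testis antigens had 2 of 40, 5 of 40, 0 of 56 and 2 of 56 higher, with 1, 0, 0 and 4 lower. Developmental transcription factor families, which hold Hoxd1, had 0 of 83, 3 of 83, 0 of 152 and 8 of 152 higher, with 0, 5, 0 and 2 lower.

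Among cell type markers, the 12 oocyte markers had 4 higher and 1 lower at polyA MII and 4 lower at RiboMinus MII, and 0 called at GV in either library type. Cumulus and granulosa markers had 2 higher and 1 lower of 14 at RiboMinus MII and 0 called elsewhere. Endothelium markers had 1 lower of 2 at polyA MII and 1 higher of 4 at RiboMinus MII. Theca and stroma markers and blood and immune markers had 0 called in any contrast, of up to 6 and 4 tested.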
